A study of Homo sapiens with 4 samples.

Results

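Peaks labelled as HNF1 binding were examined at 6 genes that encode transporters of the intestinal absorptive cell, namely SLC5A1, SLC2A2, SLC2A5, SLC15A1, SLC6A19 and SLC26A3. A peak belonged to a locus when its midpoint lay in a window that held the gene with about 50 kb on each side, in hg19 coordinates. The 6 windows covered 882 kb and held 11 of the 10015 peaks in the deposited lists, 4 from replicate 1 and 7 from replicate 2. These peaks formed 10 of the 7108 distinct regions of the series. A single region, inside SLC2A2, was called in both replicates, and the other 9 stood in 1 list only. No peak of either list lay in the windows of SLC5A1 and SLC2A5. The rule used gene function and position and no measured value, but the genes were chosen with earlier results of these data known.

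The data were from chromatin immunoprecipitation followed by sequencing (ChIP-seq) in Caco2 cells, with no treatment given in the labels. Caco2 is a human line from a colorectal adenocarcinoma that is used as a model of the intestinal epithelium, grown in low-glucose medium with serum. The 4 libraries comprised 2 HNF1 immunoprecipitations and 2 inputs prepared with no antibody, and each immunoprecipitation gave 1 peak list called against the input of its own number. The titles and the antibody entry name HNF1, whereas the extraction text of every library names FOXA2. Which factor was precipitated was not tested, and HNF1 is used below as the label gives it. The replicates were not described as separate cultures, so the agreement between them may be technical.

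HNF1 proteins are homeodomain transcription factors that bind DNA as dimers, usually at a palindrome whose left arm is GTTAAT, followed by any base and then by the same arm on the opposite strand. They are known for driving genes of differentiated liver, kidney, pancreas and gut epithelium. Absorptive cells of the gut take up sugars, short peptides, amino acids and ions through carriers of the apical membrane, which faces the lumen, and release them to the blood through carriers of the basolateral membrane. The 6 genes encode 3 sugar carriers, 1 peptide carrier, 1 amino acid carrier and 1 ion exchanger.

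Each peak carries the authors' score, which is its tag count after scaling the library to 10000000 tags, rounded. Replicate 1 was sequenced less deeply (11931439 tags) than replicate 2 (18469659 tags). Put on the score scale, the caller's tag threshold was 7.54 for replicate 1, with 7.04 for replicate 2. These were not a floor of the deposited scores, since 258 replicate 1 peaks and 17 replicate 2 peaks were listed below them, down to a score of 6. The lists contained 5060 peaks of 143 bp and 4955 peaks of 227 bp, with median scores of 12 and 11. Gene ends were taken as the window ends less 50 kb and are approximate, since windows were given in whole kb. Distances to them are rounded to 1 kb. With 1 list per library there is no standard deviation, and intervals on scores and shares cover counting error only.

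Among the sugar carriers, SLC2A2 was the locus with the shared region. It encodes GLUT2, a facilitative carrier of glucose, galactose and fructose that lies mainly in the basolateral membrane. Its shared region spanned chr3:170720012-170720283, about 25 kb downstream of the gene start and inside the 31 kb gene. Whether it lies in an exon or an intron was not determined. The peak of replicate 1 scored 28, from about 33 tags, and that of replicate 2 scored 17, from about 31 tags. In replicate 1, 11.98% of the list scored 28 or more, and in replicate 2, 23.6% of the list scored 17 or more. The 95% Poisson interval of the score was 19.0 to 38.8 in replicate 1 and 11.4 to 23.8 in replicate 2. These are not on a common scale, because the peak sizes differ, and the levels of the replicates were not compared. Ordered by the worse of its 2 ranks, the region stood at place 612 of the 2905 shared regions. Its peaks overlapped by 98 bp and their midpoints were 87 bp apart. The overlap covered 68.5% of the replicate 1 peak and 43.2% of the wider replicate 2 peak, so a rule asking for 50% of both no longer counted it as shared.

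The SLC2A2 window held 2 further peaks, each upstream of the gene and each in a single list. Replicate 1 had a peak of score 14 at chr3:170775041-170775183, about 30 kb upstream. Replicate 2 had a peak of score 11 at chr3:170763166-170763392, about 18 kb upstream. These 2 peaks were about 12 kb apart and were different sites. In RefSeq gene order TNIK is the next protein-coding gene on this side, and the assignment of an upstream peak to either gene was not tested.

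SLC5A1 encodes SGLT1, the sodium-driven carrier that brings glucose and galactose across the apical membrane. SLC2A5 encodes GLUT5, the apical fructose carrier. Their windows, of 170 kb and 151 kb, were among the wider ones, and neither held a peak in either list. Most stretches of similar size held none, since 23.7% of 147 kb tiles over the chromosomes held a region of either list. The peaks closest to the SLC5A1 start belonged to 1 shared region about 202 kb away, beyond the end of the gene, with scores of 13 in replicate 1 and 19 in replicate 2. For SLC2A5 the closest peak scored 14 in replicate 1 at about 207 kb, and the closest in replicate 2 scored 15 at about 347 kb. A window without a peak had no position that passed the thresholds over background, over input and over the local region, which does not show that HNF1 was absent there.

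The promoter of SLC5A1 is printed as a locus that had a near match to the HNF1 palindrome in its RefSeq promoter but no peak. The window runs from 250 bases before to 50 bases after the gene start, and capitals mark the best match to the palindrome.
SLC5A1 promoter, chr22:32043011-32043310 (GRCh38.p14, plus strand): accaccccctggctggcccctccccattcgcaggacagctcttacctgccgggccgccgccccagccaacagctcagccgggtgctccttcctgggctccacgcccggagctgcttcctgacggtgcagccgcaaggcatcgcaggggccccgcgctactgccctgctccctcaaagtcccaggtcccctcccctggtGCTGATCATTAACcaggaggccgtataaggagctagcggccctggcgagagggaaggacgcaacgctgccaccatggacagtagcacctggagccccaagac

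The match ran from base -52 to base -40 relative to the start and had 2 mismatches, with a complete arm, read on the opposite strand, at its downstream end. Of 35116 RefSeq promoters of the same length, 1.31% held a match with 2 or fewer mismatches. The full palindrome, with no mismatch, stood in none of the 6 promoters and in 0.00570% of all, or 2 promoters. A match of letters is a description of the sequence and says nothing on binding.

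SLC15A1 encodes PEPT1, a proton-coupled carrier of short peptides. Its window held 3 peaks, all from replicate 2 and all weak. They scored 8 at chr13:99300610-99300836, 7 at chr13:99317307-99317533 and 7 at chr13:99428332-99428558. The first was about 35 kb and the second about 19 kb past the end of the gene, and the last was about 23 kb upstream of its start. None lay in the gene. A score of 7 corresponds to about 13 tags, which is the tag threshold of replicate 2, and 10.1% of that list scored 7 or less. The closest replicate 1 peaks were between 46 kb and 95 kb from these sites.

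SLC6A19 encodes B0AT1, a sodium-dependent carrier of neutral amino acids. Its window held 1 peak, from replicate 1, at chr5:1182966-1183108. It scored 14, from about 17 tags, with a 95% Poisson interval of 8.30 to 22.8, and lay about 19 kb upstream of the gene start. The closest replicate 2 peak was about 77 kb from it and also scored 14. Thus the carriers of peptides and amino acids had peaks in 1 list each and none within the gene.

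SLC26A3 encodes the apical exchanger of chloride for bicarbonate, also called DRA, whose loss causes congenital chloride diarrhoea. All 3 of its peaks lay in or at the gene, and no 2 of them overlapped. Replicate 2 had a peak of score 11, from about 20 tags, at chr7:107443727-107443953, with its midpoint within 1 kb of the approximate gene start. On which side of the start it lay was not settled. Replicate 1 had a peak of score 14, from about 17 tags, at chr7:107440238-107440380, about 4 kb inside the gene. The midpoints of these 2 peaks were 3.53 kb apart, far beyond the width of a peak. The remaining peak, of score 9 in replicate 2, lay about 24 kb inside the gene at chr7:107420215-107420441. Both replicates thus had a peak near the start of SLC26A3, but not at the same position.

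**Figure D1:**
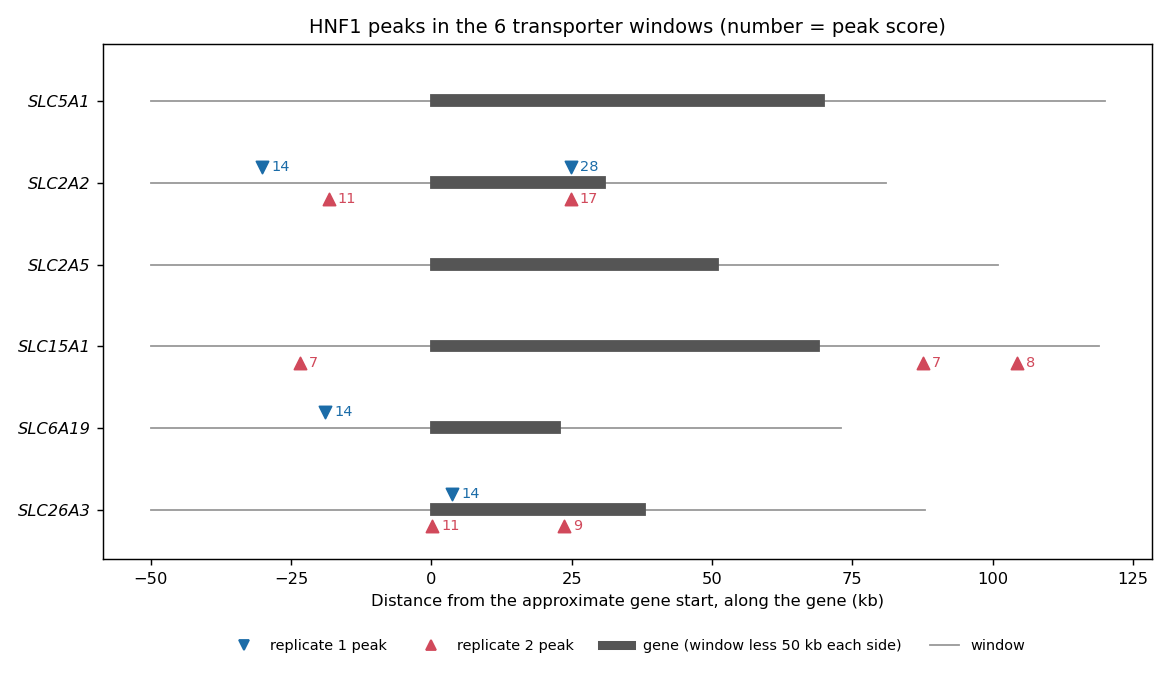
The horizontal axis gives the distance in kb from the approximate gene start along each gene, with the gene as a thick bar and its window as a thin line, replicate 1 peaks above and replicate 2 peaks below, each with its score. Only the SLC2A2 peaks of score 28 and 17 stand at the same place, and the SLC5A1 and SLC2A5 windows are empty.

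The RefSeq promoter of SLC26A3 is printed because a replicate 2 peak lay closest to a gene start here. It comes from another build than the peaks, and the position of the peak relative to it was not settled at this resolution.
SLC26A3 promoter, chr7:107803174-107803473 (GRCh38.p14, minus strand): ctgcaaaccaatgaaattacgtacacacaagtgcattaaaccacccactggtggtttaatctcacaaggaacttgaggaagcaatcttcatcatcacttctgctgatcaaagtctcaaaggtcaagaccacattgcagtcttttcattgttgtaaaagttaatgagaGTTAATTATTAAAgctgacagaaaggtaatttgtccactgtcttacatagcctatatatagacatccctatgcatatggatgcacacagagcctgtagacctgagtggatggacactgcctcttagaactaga

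The capitals, from base -83 to base -71, match the palindrome with 1 mismatch, in the last letter. A match at 1 or fewer mismatches stood in 0.145% of the 35116 promoters, or 51 of them. A further GTTAAT arm, at -93 to -88, preceded it on the same strand. The best matches of all 6 promoters show how the genes differ, with capitals for letters that fit the palindrome and lower case for those that do not.
SLC5A1: GcTgATCATTAAC
SLC2A2: cTTAtTGATTAga
SLC2A5: tccAgTCATTcAC
SLC15A1: ccTccTGAgTcAg
SLC6A19: aTaAggCATTAAC
SLC26A3: GTTAATTATTAAa

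These matches had 2 mismatches in SLC5A1, 4 in SLC2A2, 5 in SLC2A5, 7 in SLC15A1, 4 in SLC6A19 and 1 in SLC26A3. Both strands were read, and the palindrome is its own reverse complement. For SLC2A5 and SLC15A1 several positions tied for the best match and the first is shown. The SLC2A5 promoter belongs to a start that lies 24560 bases inside the gene as RefSeq draws it. Matches at 4 or fewer mismatches were found in 33.3% of promoters, so those of SLC2A2 and SLC6A19 were ordinary. SLC2A2, which had the shared region, therefore had no close match in its promoter, and its region lay about 25 kb from there. The sequences under the peaks were not read, so whether that region holds the palindrome is not known. The 6-letter arm, which also lies inside the SLC5A1, SLC6A19 and SLC26A3 matches, stood in 3 of the 6 promoters and in 6.88% of all promoters. Of 41 other transporter genes listed for context, 32 had a RefSeq promoter. A match at 3 or fewer mismatches was held by 6 of these 32, by 2 of the 6 transporter genes studied here and by 7.56% of all promoters. SLC5A4, of the sodium/glucose cotransporter family, the cystine carrier subunit SLC7A9 and the ileal bile acid carrier SLC10A2 came closest of the 32, with 2 mismatches each. Peaks near these context genes were not looked up, since no hg19 gene positions were used here.

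**Figure D2:**
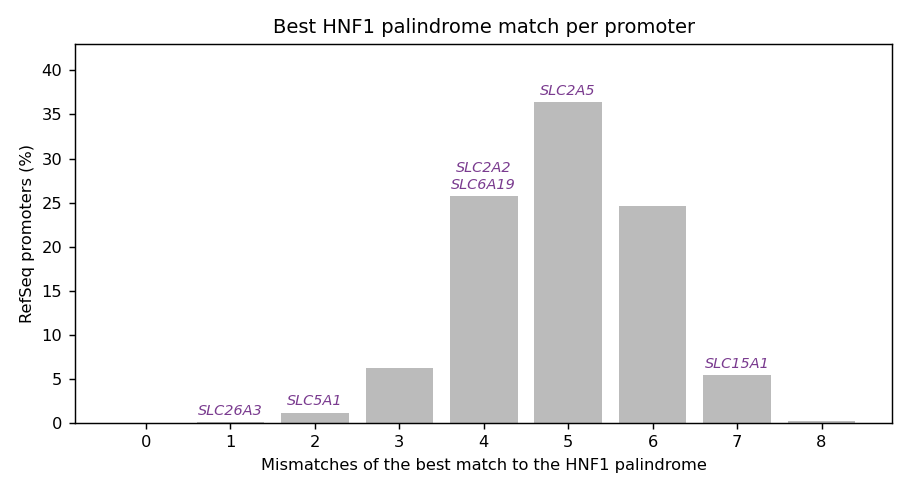
Bars give the percentage of 35116 RefSeq promoters by the mismatches of their best match to the 13-letter palindrome, and the names mark the 6 transporter genes. SLC26A3 with 1 mismatch and SLC5A1 with 2 stand in the sparse left part, and SLC15A1 with 7 on the right.

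Read together, the windows held peaks that ranged from low to fairly high scores within their lists. In replicate 1 the 4 peaks scored 28, 14, 14 and 14, with a median of 14 against 12 over the whole list. In replicate 2 the 7 peaks scored 17, 11, 11, 9, 8, 7 and 7, with a median of 9 against 11 over the whole list. No peak of the 6 loci came near the top of either list, where the highest scores were 275 and 125. The best placed was the SLC2A2 peak of replicate 1, at rank 574 of 5060.

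**Figure D3:**
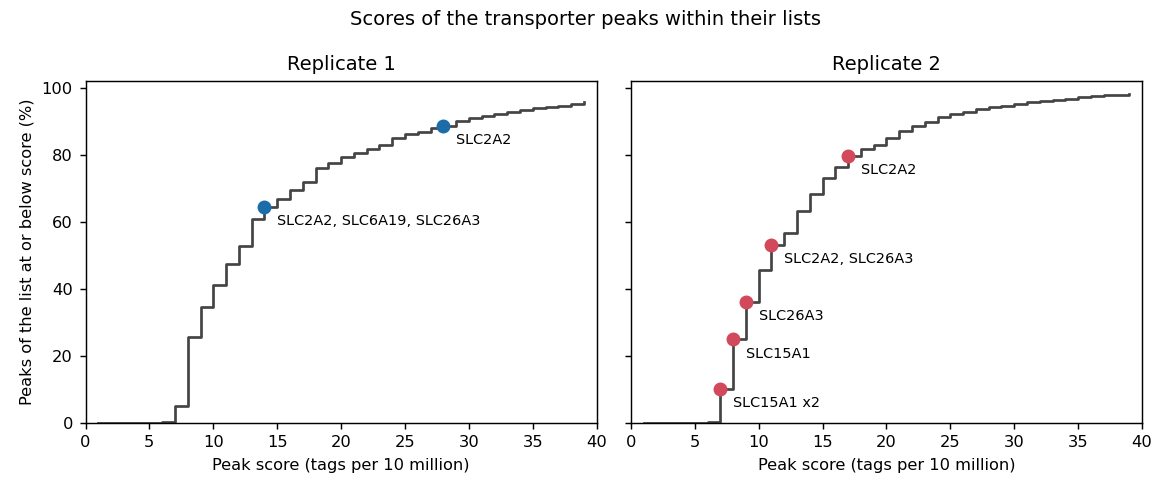
Curves give the percentage of a list's peaks at or below each score, up to a score of 39, and dots mark the transporter peaks. SLC2A2 is highest in both replicates, and the SLC15A1 peaks are at the low end of replicate 2.

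A partner in the other list was found for 1 of 4 replicate 1 peaks, or 25% (95% Wilson interval 4.56% to 69.9%), against 57.5% of the whole list. In replicate 2 it was found for 1 of 7 peaks, or 14.3% (2.57% to 51.3%), against 58.6% of the whole list. These shares rest on few peaks and moved with the choice of flank and score. In replicate 2 the share was 33.3%, or 1 of 3 peaks, with flanks of about 10 kb and likewise with peaks at or above the list's median score, and 30% (3 of 10, 10.8% to 60.3%) with flanks of about 100 kb. In replicate 1 it was 50% with either flank. With the main windows the replicate 2 interval ended at 51.3%, below the 58.6% of its whole list, while the replicate 1 interval included 57.5%. With the other flanks or the score limit, every interval included the value of the whole list, which was not itself limited by score. Those intervals are wide because the peaks are few, so this inclusion cannot show that the reading changed. Defining partners by midpoints within 200 bp, or windows by any overlap, left the shares and intervals as with the main windows. No lower recurrence at the 6 loci is read from the counts. Peaks of a library are not independent, and no test of either difference was made. Recurrence moved with the score over the whole lists. Of the 33 replicate 1 peaks of score 28, 97.0% had a partner, and of the 183 peaks of score 14, 65.0% did. In replicate 2, the shares were 85.8% at score 17, 57.8% at 11, 40.1% at 9, 31.1% at 8 and 25.1% at 7. The 3 replicate 1 peaks without a partner, all of score 14, were thus of a level at which most peaks of that list recurred. Those of replicate 2 included the 3 low SLC15A1 peaks and the SLC26A3 peak of score 9, of levels at which most did not. They also included the SLC2A2 and SLC26A3 peaks of score 11, a level at which most did.

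**Figure D4:**
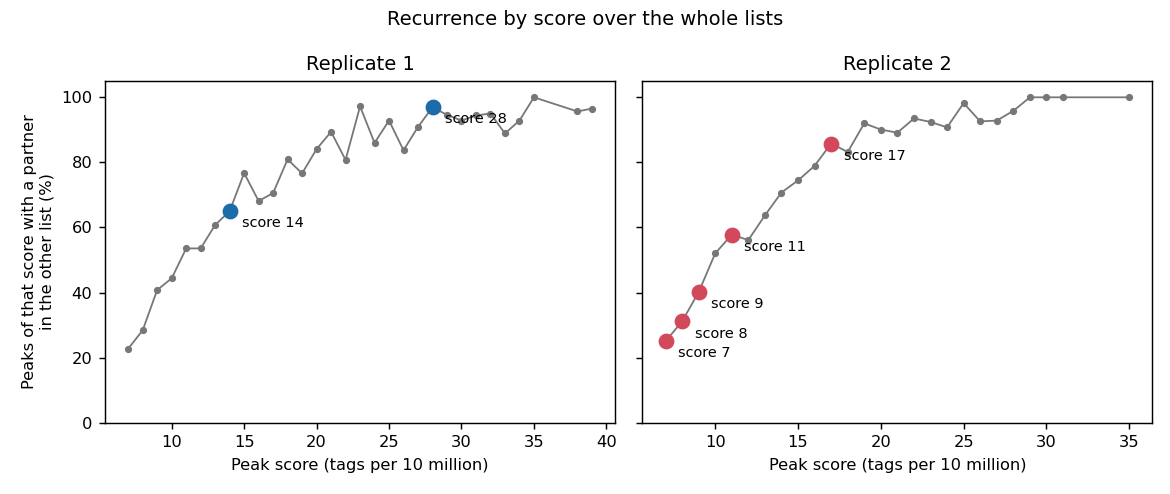
Grey points give the percentage of peaks with a partner in the other list at each score held by 20 or more peaks, over the whole lists, and coloured points mark scores that occur at the transporter loci. The share climbs with score in both replicates, to 97.0% at the SLC2A2 score of 28 in replicate 1 and 85.8% at its score of 17 in replicate 2.

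Counted by length, the windows held 11.3 regions per Mb, against 2.44 per Mb over the 2915 Mb between the first and last peaks of all chromosomes. For shared regions the values were 1.13 and 0.997 per Mb. Regions of either list lay in 4 of the 6 windows, whereas 23.7% of 19814 end-to-end tiles of 147 kb, the mean window length, held one. A shared region lay in 1 of the 6 windows and in 12.0% of the tiles. The tiles cover the genome without regard to genes, so they are a background for the counts and not a matched comparison.

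The choice of flank decided 6 of the 10 regions. With flanks of about 10 kb, the 3 SLC15A1 peaks, the SLC6A19 peak and both upstream SLC2A2 peaks fell outside. Of the peaks inside the windows used, the one closest to a limit was the SLC15A1 peak of score 8, about 15 kb from it. Of those outside, the closest was a replicate 2 peak of score 7 about 11 kb beyond the SLC15A1 window. Shared regions lay about 19 kb beyond the SLC15A1 window, 46 kb beyond the SLC6A19 window and 53 kb beyond the SLC2A2 window. The first, at chr13:99474278-99474504 and about 69 kb upstream of the SLC15A1 start, scored 21 in replicate 1 and 27 in replicate 2. In RefSeq gene order DOCK9 is the next protein-coding gene on that side. The second, at chr5:1106060-1106286 and about 96 kb upstream of the SLC6A19 start, scored 24 and 14. Within 500 kb of the 6 starts there were 16 shared regions, or 2.67 per Mb, against 0.997 per Mb over all chromosomes. This difference was not tested. SLC2A2 had 5 of the 16, SLC15A1 and SLC26A3 had 4 each, and SLC5A1, SLC2A5 and SLC6A19 had 1 each. All 4 near SLC26A3 were upstream and at least 201 kb away, the highest with scores of 33 in replicate 1 and 15 in replicate 2. Upstream of SLC2A2, a region about 103 kb away scored 15 and 33 and a region about 332 kb away scored 29 and 21. Such distances take in other genes, and no link to the transporter gene was measured.

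**Figure D5:**
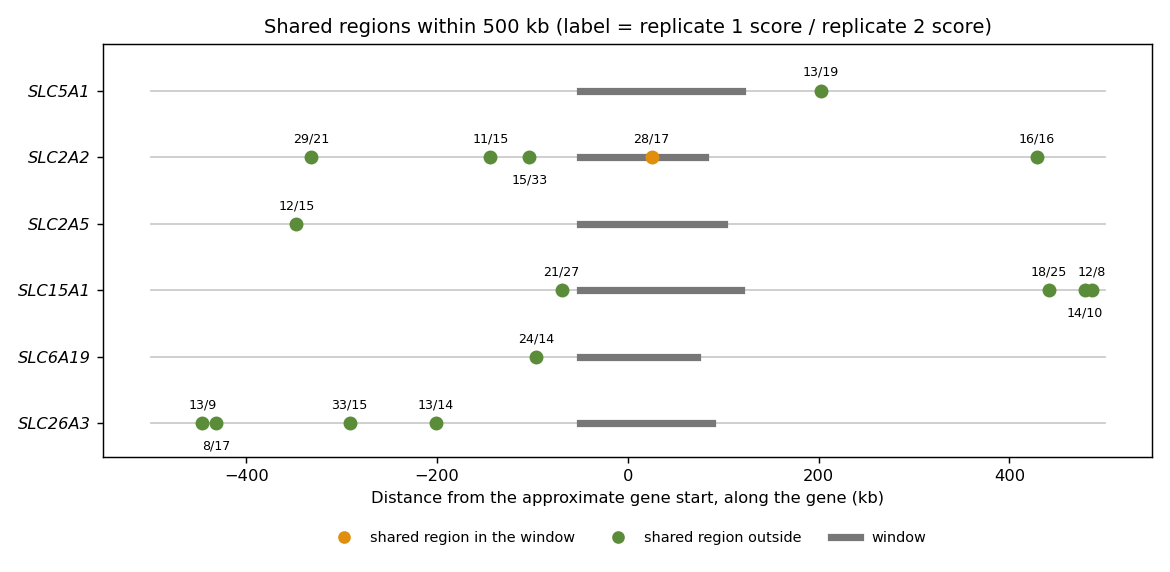
Dots are shared regions by their distance in kb from the approximate gene start, labelled with the replicate 1 and replicate 2 scores, and thick lines are the windows. A single dot, at SLC2A2, falls in a window, and the closest of the others are 69 kb and 96 kb upstream of SLC15A1 and SLC6A19.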

How the data were processed

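HNF1 ChIP-seq peaks of 2 Caco2 libraries were used. The 2 inputs entered only through the authors' peak calling. The submitters' processing notes name Bowtie 1.0.0, HOMER 1.2 and hg19 without stating their roles. Per the file headers, HOMER findPeaks in factor mode called each library separately at a false discovery rate of 0.001, with 4-fold enrichment over input and over the surrounding 10000 bp, and tag thresholds of 9 and 13. Tags were counted over 142 bp in replicate 1 but over 226 bp in replicate 2, and an equal density could pass in 1 list and not in the other. The deposited score is the authors' tag count per peak scaled to 10000000 tags per library, rounded to whole numbers. Scores summed to 1.002 and 1.006 times the scaled tags in peaks of the headers. They rank peaks within a list, and their scale differs between lists with the peak size.

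Deposited starts count from 0 and were raised by 1. Peaks overlapping by 1 bp or more were called shared and joined. Shares carry 95% Wilson intervals and scores 95% exact Poisson intervals on tags, taken as score over 0.838 in replicate 1 and 0.541 in replicate 2. No test between conditions exists in this design and no enrichment was tested. All 6 genes were named and every peak in their windows described. The genes, windows and lists were chosen with earlier results of these data known. Promoters and gene order came from RefSeq, GRCh38.p14, another build than the peaks, so no coordinates were joined between them and all 6 genes matched by symbol. Overlap and motif counting were tested on simulated data. Python 3.11.15, numpy 2.4.6, pandas 2.3.3, scipy 1.17.1 and matplotlib 3.10.9 were used.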

Additional observations from a re-analysis of the deposited data

How the results depend on the processing

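The SLC2A2 region stayed the 1 shared region in the 6 windows when partners were defined by midpoints within 200 bp, when only peaks at or above their list's median score were kept, when flanks were narrowed to about 10 kb and when any overlap with a window sufficed. When 50% of both peaks had to overlap, shared regions and windows with one both came to 0, and the shares with a partner to 0% in each replicate. A replicate 1 peak can cover at most 63.0% of a replicate 2 peak, so this rule asks for near alignment. No share over the whole lists is given for this rule, so the 0% is not read as a feature of these loci. With flanks of about 100 kb, 3 shared regions in 3 windows were counted, with those by SLC15A1 and SLC6A19 added. These windows are longer than the 147 kb tiles, and no share of tiles of their length is given, so the rise is not read as a result. The 10 distinct regions came to 6 with the better scored peaks and to 4 with flanks of about 10 kb, and to between 4 and 7 with 1 replicate left out. No promoter of the 6 held the palindrome without a mismatch, 1 held it at 1 or fewer and 2 at 2 or fewer. No paired analysis was possible because peak lists were used for the immunoprecipitations alone. The share of peaks with a partner was 50% in replicate 1 with narrower or wider flanks, and in replicate 2 it was 33.3% with narrower flanks or better scored peaks and 30% with wider flanks.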
